A study of Mus musculus with 2 samples.

Results

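The Hedgehog genes described here are 9 members of the pathway: the ligands Shh and Ihh, the receptor Ptch1, the transducer Smo, the antagonist Hhip, the transcription factors Gli1, Gli2 and Gli3, and their inhibitor Sufu. They were chosen by name and matched by gene identifier, and all 9 were found among the 43346 mouse genes of the deposited tables. The tables come from total RNA of newborn lung in mice of strain B6NCrl, with no treatment or altered gene named in the labels. There was 1 group of 2 libraries at postnatal day 0, each from the 2 lungs of a single pup, and the labels number the pups 1 and 3 of pregnancy 1. Both libraries carry the same donor identifier and no sex was collected for the pups, so the SDs below rest on the pup numbers alone.

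Hedgehog ligands are secreted, lipid-modified proteins. Without ligand, Patched holds Smoothened inactive, and Gli2 and Gli3 are kept in check by Sufu and by cleavage into repressors. Ligand bound to Patched frees Smoothened in the primary cilium, and activated Gli proteins then switch on targets that include Gli1, Ptch1 and Hhip, which makes these 3 genes usual readouts of signalling. In developing lung, Shh is known to be made by the airway and distal epithelium, while Ptch1, Hhip and the Gli genes are known mainly from the mesenchyme around it. These libraries hold all cell types of the lung together, so fewer cells of a type and less RNA per cell cannot be told apart, and no transcript was assigned to a cell type.

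The question put to the data was how the level of the epithelial ligand compared with the levels of the receptors and targets. Levels are given as TPM, a transcript abundance scaled by length and to the same total in each library, which can be compared between genes. Intervals are exact 95% Poisson intervals from the expected counts, estimated read counts that need not be whole, and cover counting error only. At a total of 42189536 expected counts over genes in pup 1 and 37026165 in pup 3, the 8 members other than Ihh held between 308 and 5613 counts per library. Of the 9 members, 8 reached TPM 1 in both libraries, as did 33.1% of all genes in the tables. Markers of the labelled tissue were present: all 10 epithelial and all 10 mesenchymal markers examined were above that level in both pups.

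Shh, the ligand that drives branching of the lung, was at 8.72 TPM (8.10 to 9.38) in pup 1 and 10.7 TPM (9.94 to 11.5) in pup 3, a mean of 9.70 ± 1.39 (SD, n = 2). Its level was above that of 37.0% of the protein-coding genes that reached TPM 1 in both libraries. Shh lies on the minus strand at chr5:28456815-28467256 in mm10, and 1 transcript model carried all of its counts. An opposite-strand lincRNA, Gm26894, overlaps its start, with 208 counts in pup 1 and 224 in pup 3 beside 730 and 761 for Shh. Another opposite-strand gene, the antisense 9530036O11Rik, has a span that covers most of Shh and held 60.5 counts in pup 1 and 51.1 in pup 3. Whether the counting used strand is not given in the sources used here, so reads in either overlap could belong to Shh or to the other gene.

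Ihh, the ligand known from growing cartilage and gut, was at 0.14 TPM (0.0640 to 0.266) in pup 1 and 0.08 TPM (0.0218 to 0.205) in pup 3. These levels rest on 9 and 4 counts, against a limit of 3 counts for a gene not seen. Shh stood 62.3-fold above Ihh in pup 1 (interval 32.6 to 137) and 133.5-fold in pup 3 (52.0 to 492), so the direction was the same in both pups while the size was poorly fixed. Of the markers of tissues known for Ihh, 1 of 6 for cartilage and 1 of 5 for gut epithelium reached TPM 1 in both pups. In the cartilage list, Sox9, which lung epithelium also expresses, made 7.95 of the summed 8.35 TPM in pup 1 and 7.55 of 7.86 in pup 3. Col10a1, the second highest gene of that list, was under TPM 1 in both pups, and Matn1 was at 0 counts. In the gut list, Lgals4, a galectin, made 13.8 of 14.5 TPM in pup 1 and 13.2 of 14.4 in pup 3, above Shh in both, Vil1 came second, and Cdx1 was at 0 counts. Their part in the level of Ihh was not tested.

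The third mammalian ligand, Dhh, known from Schwann and Sertoli cells, is no member but was at a level near that of Shh. It measured 8.51 TPM (7.85 to 9.21) in pup 1 and 5.90 TPM (5.31 to 6.54) in pup 3. The log2 ratio of Shh over Dhh, added after the level of Dhh was seen, was 0.04 in pup 1 with an interval of -0.12 to 0.19, and 0.86 in pup 3 with an interval of 0.68 to 1.04. The ligands therefore did not differ beyond counting error in pup 1, and Shh was 1.81-fold higher in pup 3. Rhebl1 overlaps Dhh on the same strand and held 278 and 186 counts, beside 622 and 367 for Dhh. Of 6 Schwann cell markers, Erbb3 and S100b reached TPM 1 in both pups, while Sox10, which defines these cells, was at 0.09 and 0.28 TPM. Their part in the level of Dhh was not tested.

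Hhip, a membrane protein that binds ligand and withholds it from Patched, was the highest of the 9 members. It reached 50.9 TPM (49.6 to 52.3) in pup 1 and 53.9 TPM (52.4 to 55.3) in pup 3, a mean of 52.4 ± 2.08 (SD, n = 2), above 79.4% of detected protein-coding genes. Ptch1, the receptor and the other target at the cell surface, was second at 11.45 TPM (11.0 to 11.9) and 15.2 TPM (14.7 to 15.8), a mean of 13.3 ± 2.68. Smo, the transducer that Patched restrains, was at 7.33 TPM (6.85 to 7.83) and 8.79 TPM (8.22 to 9.39), a mean of 8.06 ± 1.03. Hhip thus stood clear of both, with no overlap between the pups' ranges, while Ptch1 and Smo were within a 1.73-fold range of each other in either pup. Hhip lies at chr8:79965851-80058006, Ptch1 at chr13:63508328-63573598 and Smo at chr6:29735503-29761365.

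The 250 bases before the annotated starts of Hhip and Ptch1 are shown because both genes are known direct targets of Gli factors and had the highest levels of the 9. RefSeq promoter sequences on GRCm38.p6, the assembly also called mm10, matched 7 of the 9 members. Shh and Gli1, itself a usual readout, had no match and are not in the counts of windows below. Capitals mark the core CCACCC or its reverse complement GGGTGG, the inner part of the Gli consensus GACCACCCA (reverse complement TGGGTGGTC). Both windows are written 5′ to 3′ on the minus strand, at chr8:80058009-80058258 for Hhip and chr13:63565736-63565985 for Ptch1.
Hhip: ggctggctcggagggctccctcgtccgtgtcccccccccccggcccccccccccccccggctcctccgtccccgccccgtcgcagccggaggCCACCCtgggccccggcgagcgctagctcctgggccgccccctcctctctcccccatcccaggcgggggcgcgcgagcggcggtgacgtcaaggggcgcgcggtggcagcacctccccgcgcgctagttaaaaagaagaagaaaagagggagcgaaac
Ptch1: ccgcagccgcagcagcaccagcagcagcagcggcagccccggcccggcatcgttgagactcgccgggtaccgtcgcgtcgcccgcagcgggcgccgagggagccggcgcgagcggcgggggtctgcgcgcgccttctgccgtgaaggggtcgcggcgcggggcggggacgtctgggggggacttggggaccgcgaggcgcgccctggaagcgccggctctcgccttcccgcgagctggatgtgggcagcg
The Hhip window held 1 core, 158 bases before the start, and the Ptch1 window held none. Over both strands the core was found in 5 of the 7 member windows (Gli2, Gli3, Hhip, Ihh and Smo) and in 28.1% of all 32851 windows of that length. The full consensus was in none of the 7 member windows and in 0.225% of all windows. A match is a description of these letters alone, and the windows do not reach enhancers further away.

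Gli1, the activator whose own transcription is a Hedgehog response, was at 3.70 TPM (3.36 to 4.07) in pup 1 and 4.37 TPM (3.97 to 4.80) in pup 3, a mean of 4.04 ± 0.47 (SD, n = 2). Gli3, known best as the main repressor, was at 3.11 TPM (2.85 to 3.39) and 3.36 TPM (3.08 to 3.66), a mean of 3.24 ± 0.18. Gli2, known as the main activator that starts the response, was at 2.33 TPM (2.09 to 2.59) and 1.72 TPM (1.53 to 1.92), a mean of 2.03 ± 0.43. The 3 factors were the lowest of the detected members, and Gli2 was above just 6.20% of detected protein-coding genes. Sufu, the protein that binds Gli factors and holds them in the cytoplasm, was higher than all 3, at 11.2 TPM (10.6 to 11.8) and 12.3 TPM (11.6 to 12.9), a mean of 11.7 ± 0.76. Gli1 lies at chr10:127329882-127341974, Gli2 at chr1:118834132-119053619, Gli3 at chr13:15463235-15730026 and Sufu at chr19:46396896-46488804. Arhgap9 overlaps the end of Gli1 on the opposite strand with 399 and 341 counts, beside 426 and 428 for Gli1.

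**Figure D1:**
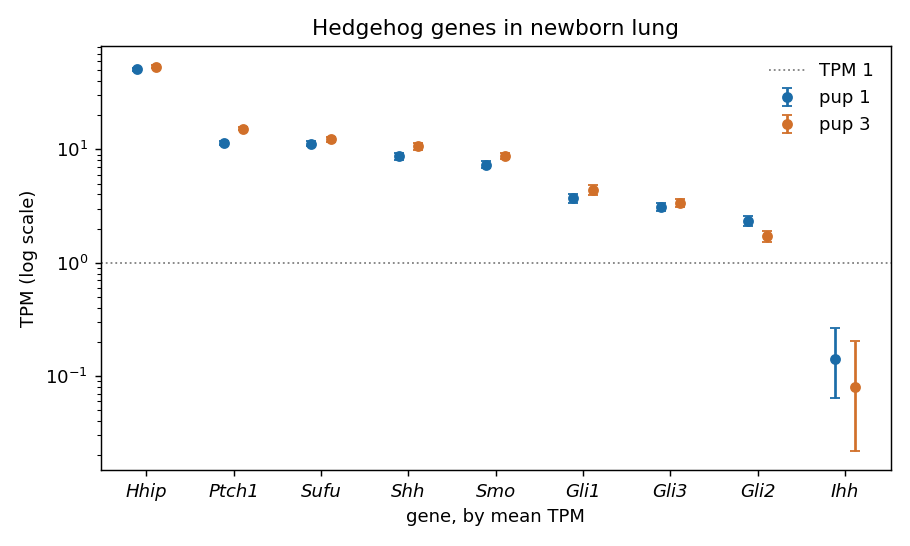
Level of each of the 9 Hedgehog genes in TPM on a log axis, with 1 point per pup and exact 95% Poisson intervals from the expected counts. Hhip stands above the rest at a mean of 52.4 TPM, 7 genes lie between 1.72 and 15.2 TPM, and Ihh is below TPM 1, the dotted line.

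Ordered by mean TPM, the members ran Hhip, Ptch1, Sufu, Shh, Smo, Gli1, Gli3, Gli2 and Ihh, and the order was the same in both pups. Of the 8 pairs of neighbours, 6 had ranges over the pups that did not overlap. For Ptch1 and Sufu, and for Shh and Smo, the ranges overlapped, although the first of each pair was the higher in either pup. Such an overlap takes no account of both genes being measured in the same library. The ratio of Shh over Smo within each library is given below. The widest steps were 18.4-fold from Gli2 down to Ihh and 3.93-fold from Hhip down to Ptch1.

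Set against the ligand within each library, the 2 target genes of the cell surface were higher and Gli1 and Smo were lower. The log2 ratio of Shh over Hhip was -2.55 in pup 1 and -2.33 in pup 3, a mean of -2.44 ± 0.15 (SD, n = 2). Hhip was thus 5.84-fold (5.40 to 6.32) and 5.04-fold (4.67 to 5.45) above Shh. These folds use all transcript models of Hhip, and its protein-coding model alone was at 36.1 TPM in pup 1 and 41.2 in pup 3. Ptch1 was 1.31-fold above Shh in pup 1 (1.21 to 1.43) and 1.43-fold in pup 3 (1.32 to 1.55), a mean log2 ratio of Shh over Ptch1 of -0.45 ± 0.08. Shh was 1.19-fold above Smo in pup 1 (1.08 to 1.31) and 1.22-fold in pup 3 (1.10 to 1.34). It was 2.36-fold (2.09 to 2.66) and 2.44-fold (2.17 to 2.76) above Gli1. None of these intervals held 1, and each ratio had the same direction in both pups. With 2 libraries, an exact sign-flip test cannot reach a two-sided p below 0.5, so no p is given for a ratio.

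Among the receivers of the signal, Hhip was 4.45-fold (4.24 to 4.67) above Ptch1 in pup 1 and 3.54-fold (3.38 to 3.70) in pup 3. Ptch1 in turn was 1.56-fold (1.45 to 1.69) and 1.73-fold (1.61 to 1.87) above Smo. Sufu was 3.60-fold (3.25 to 3.99) and 3.65-fold (3.30 to 4.04) above Gli3. The pups were closest on this ratio by the deposited TPM, at a mean log2 of Gli3 over Sufu of -1.86 ± 0.01. It carries the effective length used for Gli3, 5199 bases in pup 1 and 5792 in pup 3. In scaled counts, Gli3 had a pup 1 to pup 3 ratio of 0.879 and Sufu one of 0.965. By the deposited TPM, the ratios with Gli2 differed most between the pups among those of 2 detected members. These ratios carry the effective length used for Gli2, 4473 bases in pup 1 and 6538 in pup 3, described below. By scaled counts, the pup 1 to pup 3 ratio of Gli2 was 0.987. Gli2 over Gli1 was -0.67 in pup 1 and -1.35 in pup 3 on the log2 scale, and Gli2 over Gli3 was -0.42 and -0.97. Gli2 was the lower gene in all 4 values.

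**Figure D2:**
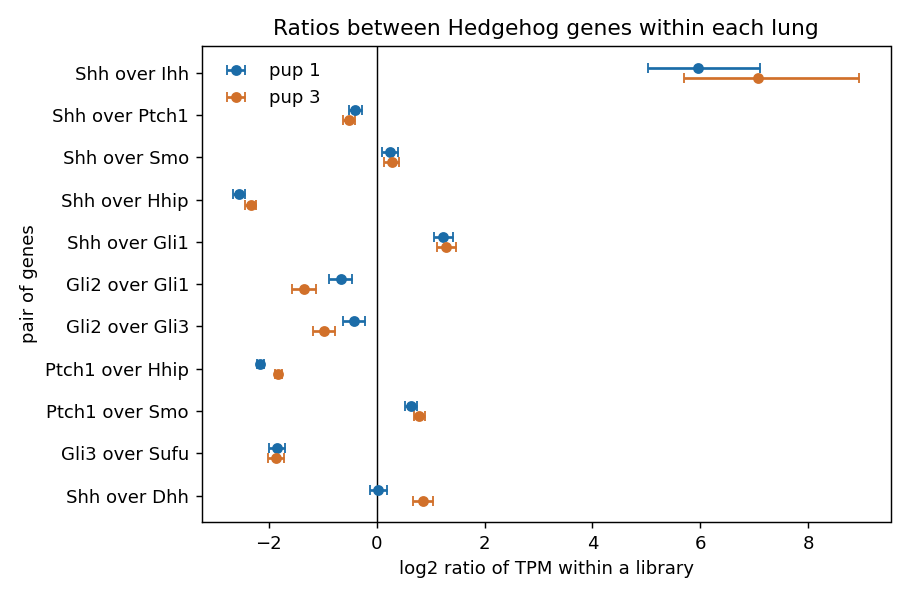
Log2 ratio of TPM within each library for 11 pairs of Hedgehog genes, with 1 point per pup and exact 95% binomial intervals for counting error. Ratios of Shh over Hhip lie near -2.44 and those of Shh over Smo near 0.27, while the 2 pups stand apart for the ratios with Gli2 and for Shh over Dhh. The ratios with Gli2 carry a different effective length of Gli2 in each pup.

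The tables also divide each gene among transcript models, and for Gli2 this division moved the level of the gene. In pup 3 all 308 counts were given to Gli2-201, the model of 6637 bases that encodes the long protein. In pup 1 the same model took 325 of 337 counts. A further 5.47 counts went to Gli2-202, a noncoding model of 367 bases, and 6.90 to Gli2-206, a protein-coding model of 1411 bases. Per length these few counts came to 27.1% of the gene's abundance for Gli2-202 and 6.98% for Gli2-206 in pup 1, against 0 for either in pup 3. The effective length used for Gli2 was accordingly 4473 bases in pup 1 and 6538 in pup 3. Gli2-201 alone was at 1.54 TPM in pup 1 and 1.72 in pup 3, so the order of the pups was the opposite of that of the gene's TPM.

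The first exon of Gli2-202 is shown because it is the part of that model that Gli2-201 lacks, at chr1:118982468-118982588 on the minus strand (GENCODE M21, GRCm38). Capitals mark its 121 bases, and the lower-case letters are the first 20 of the 246 bases that it shares with Gli2-201.
Gli2-202: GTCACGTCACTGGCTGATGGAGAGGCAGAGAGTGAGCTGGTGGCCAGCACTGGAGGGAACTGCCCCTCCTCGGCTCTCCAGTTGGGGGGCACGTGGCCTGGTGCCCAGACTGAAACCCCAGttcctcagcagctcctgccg
The tables do not say which of its 5.47 counts came from reads in the capital letters.

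Ptch1, with 8 models, was carried mostly by Ptch1-202, a protein-coding model of 7002 bases with 81.4% of the abundance in pup 1 and 85.3% in pup 3. Its start lies 1200 bases inside that of Ptch1-201, the longest model, which took 9.70% and 7.15% and whose start the Ptch1 window printed above belongs to. Hhip-201, the protein-coding model, took 70.9% and 76.4%, and the rest went to Hhip-202, a processed transcript of 909 bases at the end of the gene. Hhip-202 held 387 and 282 counts, which was 6.90% and 5.28% of the counts of Hhip. Hhip-201 alone was at 36.1 TPM in pup 1 and 41.2 in pup 3, while the folds of Hhip above use the TPM of both models. The Hhip-201 model in the tables is 4582 bases long and that in GENCODE M21 is 9074, so the TPM of Hhip rests on the shorter, older model.

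Sufu-201 made 83.2% and 84.2% of Sufu, and Sufu-202 made 11.8% and 10.7%. Gli3 was spread more widely: Gli3-201, of 8170 bases, took 51.4% and 61.3%, Gli3-202, of 2004 bases, took 34.9% and 27.2%, and the retained-intron model Gli3-203 took 13.7% and 11.5%. By counts rather than abundance, Gli3-201 held 79.8% and 85.5%. The split of Ihh between Ihh-201, at 65.4% and 41.2%, and a retained-intron model rests on 9 and 4 counts and shows no difference that could be read. Shh, Smo and Gli1 have 1 model each.

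**Figure D3:**
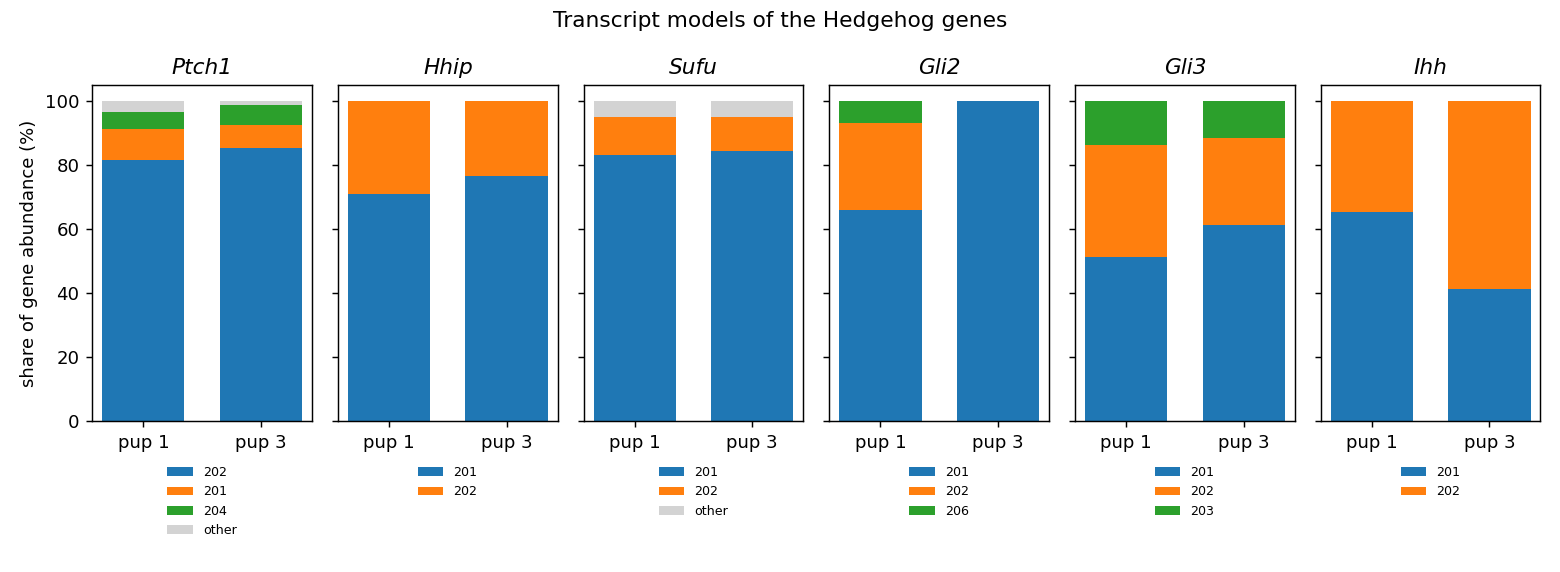
Share of each gene's abundance given to its transcript models in percent, stacked per pup, for the 6 genes with more than 1 model. Ptch1-202 holds over 80% in both pups, and Gli2-202 holds 27.1% in pup 1 and none in pup 3.

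Beyond the 9 members, 41 of 47 other pathway genes reached TPM 1 in both libraries, beside 33.1% of all genes. Of the 12 genes that process, release or carry the ligand, 8 were detected, led by the glypican Gpc3 at 258 and 281 TPM and by the heparan sulfate polymerases Ext2 at 67.4 and 61.5 and Ext1 at 14.5 and 16.6. Scube3 and Gpc5 were under TPM 1 in both pups. Hhat, which attaches palmitate to the ligand, was at 2.10 and 3.05 TPM, and Disp1, which releases it, at 3.07 and 3.43. Hhat and Disp1 were named after their values were seen.

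Of 6 coreceptors and their regulators 5 were detected, with Gas1 at 19.9 and 18.0 TPM and Boc at 12.5 and 12.2. Lrp2, chosen after its values were seen, was at 0.98 TPM in pup 1 and 2.07 in pup 3. All but Gpr161 of 15 genes of the cilium and of signal relay were detected, led by the motor Kif3a at 33.4 and 32.7 TPM, then Arrb1 and Stk36. Gpr161, a receptor that keeps the pathway off, was at 0.49 and 0.45 TPM. All 12 genes for Gli kinases and turnover were detected, with the kinase Csnk1a1 at 157 and 161 TPM, Spop, which marks Gli proteins for breakdown, at 123 and 164, and Prkaca at 83.0 and 82.5. Many of these genes serve other pathways too.

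Among 14 genes known to respond to Hedgehog in lung or gut mesenchyme, 13 were detected, beside 33.1% of all genes. Foxf1, a forkhead factor of lung mesenchyme, was at 137.5 TPM in pup 1 and 172 in pup 3, above 93.4% of detected protein-coding genes. The cyclins Ccnd1, at 58.8 and 65.2 TPM, and Ccnd2, at 52.8 and 59.5, followed. Foxl1, chosen after its values were seen, was the one below TPM 1 in a library, at 0.71 in pup 1 and 1.16 in pup 3. Most of this list is controlled by other signals as well, so its levels do not measure Hedgehog activity.

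**Figure D4:**
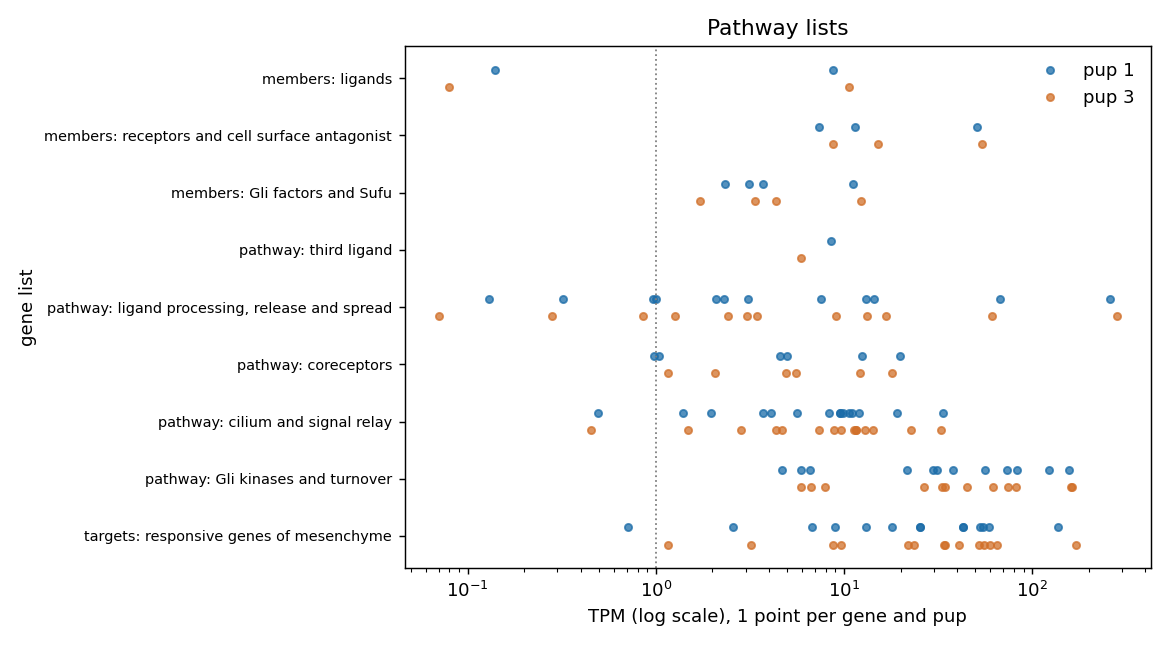
TPM of each gene on a log axis for the lists of Hedgehog members, other pathway genes and responsive genes, with 1 point per gene and pup and a dotted line at TPM 1. Genes for Gli kinases and turnover are all to the right of the line, while 2 genes of ligand processing, Scube3 and Gpc5, are to its left in both pups.

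Marker levels are given beside these values. Each sum depends on which genes were listed and how many, so the sums do not measure the share of each cell type. Epithelial markers, from the layer known to make Shh, summed to 1503 TPM in pup 1 and 1635 in pup 3, led by Krt19 and Krt8. Mesenchymal markers summed to 2091 and 2075 TPM, led by Tcf21 and Col3a1, and smooth muscle and myofibroblast markers to 1079 and 1027, led by Tgfbi and Acta2. Endothelial markers, with Egfl7 and Cldn5 highest, summed to 1059 and 1159 TPM. Of 6 markers of stratified epithelium 2, Krt4 and Krt14, reached TPM 1 in both pups, and the list summed to 5.37 and 4.56 TPM.

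Between the pups, no member differed. The rule for a difference asked that scaled counts be at least 2-fold apart, that the gene have 50 or more counts over both libraries and that the exact binomial interval of the ratio leave out 1. With 1 library against 1 this has no replicate check and no p. By that rule 0 of the 8 members with enough counts differed, beside 1.40% of the 15790 genes tested (104 genes, 0.659%, higher in pup 1 and 117 genes, 0.741%, higher in pup 3). When libraries were scaled by their spike-in counts, 161 were higher in pup 1 and 82 in pup 3, and again 0 members differed.

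Ptch1 had the widest gap of the 8, with a pup 1 to pup 3 ratio of 0.782 (0.741 to 0.825), followed by Shh at 0.866 (0.781 to 0.959), Gli3 at 0.879 (0.777 to 0.993) and Smo at 0.885 (0.805 to 0.973). Hhip was at 0.946 (0.912 to 0.983). The intervals of Gli1, Sufu and Gli2 held 1, and Gli2, whose TPM had been higher in pup 1, had a ratio of counts of 0.987 (0.844 to 1.16). Ptch1, at a log2 ratio of -0.36, lay outside the central 68% of all genes tested, from -0.23 to 0.21. Among the 9858 genes with 600 to 12000 counts over both libraries, a range that holds all 8 members, the central 68% ran from -0.17 to 0.18, and Ptch1, Shh (-0.21), Gli3 (-0.19) and Smo (-0.18) lay outside it. All 8 log2 ratios were below 0 with TMM scaling, with total counts and with the median of ratios, but with spike-in scaling 5 were below 0 and Hhip, Sufu and Gli2 were above it. Over all 15790 genes, 7741 were below 0 with TMM and 3941 with spike-in scaling. Spike-in scaling, which rests on 317 and 316 counts, moved the median log2 ratio of all genes from 0.01 to 0.15, and that of the 8 members from -0.17 to -0.02.

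Of the responsive genes, 0 of 14 differed by the rule, beside 1.40% of all genes tested. Of these 14 genes, 12 were lower in pup 1 with TMM scaling and 9 with spike-in scaling. Their median log2 ratio was -0.23 with TMM, beside 0.01 over all genes tested, and -0.09 with spike-in scaling, beside 0.15. Foxf2, chosen after its values were seen, had 13.1 TPM in pup 1 and 23.5 in pup 3, a log2 ratio of -0.76. Of the other pathway genes 0 of 46 tested differed, beside the same 1.40%, with a median of -0.04. Dhh went the other way, with a ratio of 1.53 (1.34 to 1.74). Median log2 ratios of the marker lists were 0.05 for epithelium, 0.02 for mesenchyme and 0.26 for smooth muscle and myofibroblasts, and their part in the members' ratios was not tested.

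**Figure D5:**
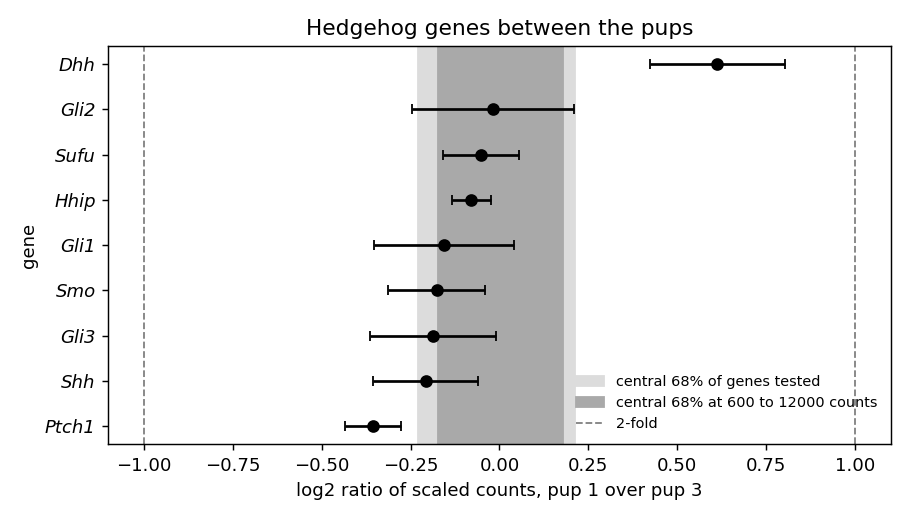
Log2 ratio of TMM-scaled counts in pup 1 over pup 3 for the 8 Hedgehog members with enough counts and for Dhh, with exact 95% binomial intervals. The light band is the central 68% of all genes tested, the dark band that of genes with 600 to 12000 counts, and the dashed lines are 2-fold. All points are inside the dashed lines, Ptch1 and Dhh are outside both bands, and Shh, Gli3 and Smo are outside the dark band.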

How the data were processed

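Total RNA of lung from 2 newborn pups was sequenced, 1 library per pup. RNA longer than 200 nt was extracted with a mirVana kit and 10 ng went into each library, per the labels' protocols, which name a SMARTer manual and spike-ins. Low input and cDNA chemistry can change which transcripts are seen. The authors deposited expected counts, which split shared reads between features and were rounded for the tests here. The deposited TPM is scaled by effective length and library, and the deposited isoform percent is the share of a gene's abundance per transcript model, both per the file headers. The deposited text files name assembly mm10 and annotation M4. Which aligner and counter were used, and whether counting used strand, is not given in the sources used here. Names, transcripts and coordinates came from GENCODE M21 on the same assembly, which held all 9 members.

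Ratios within a library used TPM, with exact binomial 95% intervals from the counts. Ratios between pups used counts scaled by TMM (edgeR 4.0.16 in R 4.3.3), with a prior count of 0.5. A count of 3 corresponds to 0.0711 CPM in pup 1 and 0.0810 CPM in pup 3. The rule for differing genes was tested on simulated data. It called 100% of genes set 4-fold apart, 90% of those set 2.5-fold apart and 0.25% of unchanged genes. The genes set apart had a mean scaled count of at least 50 per library, while the rule admits genes from 50 counts over both. The first 2 rates therefore do not cover genes nearer that limit. The simulation took its spread from these same 2 libraries, as 1 value for all genes, so it is no independent check. DESeq2 1.42.0 gave the median of ratios. Named were all members, the 3 highest genes of each pathway list and those under TPM 1 in both libraries, the 2 highest of each marker list, member transcripts at 10% or more, and any list gene that differed; other names are marked as chosen after their values were seen, and a few that the rule would name are not reported here. The members and lists were chosen with earlier results of these data known. The labels call the libraries replicates, and no test between groups was possible with 1 group.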

Additional observations from a re-analysis of the deposited data

How the results depend on the processing

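No ratio between 2 members within a library changed direction under the alternatives run for it, and 0 of the 8 members differed between the pups under any. Spike-in scaling turned the pup ratios of Hhip, Sufu and Gli2 from below to above 1. With the length of the longest transcript model in place of the effective length, the mean log2 ratio was -0.30 for Shh over Ptch1, -2.09 for Shh over Hhip, 0.57 for Ptch1 over Smo and -2.27 for Gli3 over Sufu. With posterior mean TPM it was -1.83 for Gli3 over Sufu, -0.54 for Gli2 over Gli1, -0.30 for Gli2 over Gli3 and 6.01 for Shh over Ihh, the mean level of Gli2 was 2.73 TPM, and the mean shares were 80.2% for Ptch1-202, 57.8% for Gli2-201 and 80.5% for Sufu-201. Genes that differed between the pups numbered 221 of 15790, and 701 of 24690 with no minimum count, 70 of 13256 with at least 200 counts and 799 at 1.5-fold, where Dhh, Foxf2 and Lrp2 were among the 7 list genes that passed. The other 5 settings gave 201 to 243. Of 70 member, pathway and target genes, 62 were detected, against 66 at TPM 0.5 and 69 at more than 3 counts. Leaving out a pup gives the value of the other, which is printed above, and with 2 libraries it is always within 1 SD of the mean, so it shows nothing of stability. It cannot be done for the count of differing genes. No paired analysis was possible because there is 1 group. Depth limits Ihh most, at 9 and 4 counts.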
